A study of Homo sapiens with 6 samples.

Results

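Messenger RNA of 36 genes of glycolysis, glucose uptake and the first steps of pyruvate use was compared between human neurons carrying a PEDS1 knockout and control neurons. The genes were taken from a list of 37 names along the pathway, drawn up with earlier results of these data known. Of these 37 genes 36 had a row in the deposited table of 16625 genes and are called members here. SLC16A3, a lactate carrier, was the listed gene without a row in the table used here. PEDS1 is the desaturase that places the vinyl ether bond of plasmalogens, a class of ether lipids. There were 3 libraries labelled PEDS1 knockout and 3 control libraries, 6 in all. The cells were human induced pluripotent stem cells (iPSCs) of the UCSFi001-A background, carrying at the AAVS1 locus an NGN2 gene that doxycycline switches on, and were grown into neurons. NGN2 is a transcription factor that turns iPSCs into neurons. The series text places the neurons at day 10 to 14, and they had matured in BrainPhys medium with doxycycline, laminin, NeuroCult SM1 and the growth factors BDNF and NT-3. All libraries of a genotype share 1 source name and all 6 share 1 batch label, so clones within a genotype cannot be told apart. Whether replicates came from separate cultures is not stated, and p-values therefore reflect the spread among these 6 libraries alone, which may be technical.

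Glycolysis splits glucose into pyruvate in the cytosol and yields ATP and NADH. Carriers of the SLC2A family let glucose in, hexokinase traps it as glucose 6-phosphate, and phosphofructokinase commits it to breakdown. Pyruvate is then reduced to lactate by lactate dehydrogenase or carried into mitochondria and oxidised by the pyruvate dehydrogenase complex, which PDK kinases hold back. Neurons take up glucose mainly through SLC2A3 and express neuron-type isoenzymes such as ENO2, and stem cells that become neurons are known to lower HK2 and LDHA.

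The libraries held 17996634 to 28773664 recovered reads in the PEDS1 knockout group and 25275584 to 44573013 in the control group. The fewest reads of any member in any library were 35. PEDS1 itself measured 836, 765 and 1349 normalized counts in PEDS1 knockout libraries 1, 2 and 3, against 1359.97, 1347 and 1399 in control replicates 1, 2 and 3. The library labelled PEDS1 knockout replicate 3 thus lay within the control range, and the other 2 lay below it. PEDS1 differed by -0.52 ± 0.17 on the log2 scale (SE, n = 3 each; limma adjusted p = 0.0725; exact two-sided permutation p = 0.2, where 0.1 is the smallest this design allows). Without that library it was -0.77 (limma adjusted p = 0.000147). PEDS1 mRNA does not set this library apart from the controls, and the labels do not say how the gene was disrupted, so values are also given without it where it decides a call or carries a difference. The neuron markers were all detected, with a summed level of 487199 to 508007 normalized counts in PEDS1 knockout libraries and 444078 to 460444 in control libraries. Their calls went both ways, with ELAVL4, NEFL and SLC17A7 higher and TUBB3 and RBFOX3 lower in PEDS1 knockout neurons. Of 8 pluripotency markers 3 had a row, with sums of 791 to 978 in PEDS1 knockout libraries against 503 to 548 in control libraries, while POU5F1, NANOG, L1TD1, TDGF1 and UTF1 had none. Of 6 cycling cell markers 5 had a row and summed to 846 to 907 in PEDS1 knockout libraries against 733 to 779 in control libraries. Of 6 progenitor markers 4 had a row and summed to 28917 to 32448 in PEDS1 knockout libraries against 26987 to 28869 in control libraries, with PAX6 higher and SOX2 lower in PEDS1 knockout neurons. Of 6 oligodendrocyte lineage markers 5 had a row and summed to 547 to 551 in PEDS1 knockout libraries against 409 to 443 in control libraries. For the astrocyte, mesenchymal and blood lists, 3, 3 and 1 of 6 markers had a row, and the sums of the groups overlapped. The part of these marker differences in the results below was not tested.

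In PEDS1 knockout neurons 8 of the 36 members rose and 28 did not pass the test. The 8 were SLC2A3, HK2, PFKM, PFKFB2, PGK1, ENO2, ENO3 and LDHA, which span uptake, trapping, commitment and the lower part of the pathway. They make up 22.2% of the members, beside 5.95% of all 16625 tested genes that were called higher in the same test. By limma 0 members were called lower, where 7.69% of all genes were, and 13.6% of all genes were called in either direction. All genes include many with fewer counts than most members. Among 11705 genes with a mean count of at least 100, limma called 938 higher and 1033 lower. Of the 35 members among them, 8 were called higher and 1, SLC2A1, lower. At an unadjusted p under 0.05, 16 members were higher, beside 14.99% of all genes, and 2, SLC2A1 and ALDOA, were lower, beside 16.7% of all genes. edgeR and DESeq2 on the recovered reads each called 1 member lower, SLC2A1. The members' changes were small. The log2 fold changes ran from -0.65 for ALDOA to 0.71 for HK2, with a median of 0.13 beside -0.01 for all genes, and 29 were positive and 7 negative. In 16 members (44.4%) every PEDS1 knockout library lay above every control library, beside 19.0% of all genes. In 1 member, SLC2A1 (2.78%), every PEDS1 knockout library lay below every control library, beside 18.2% of all genes. The groups overlapped in the other 19. In bulk RNA such as this, a change in the share of a cell type and a change in RNA per cell cannot be told apart.

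**Figure D1:**
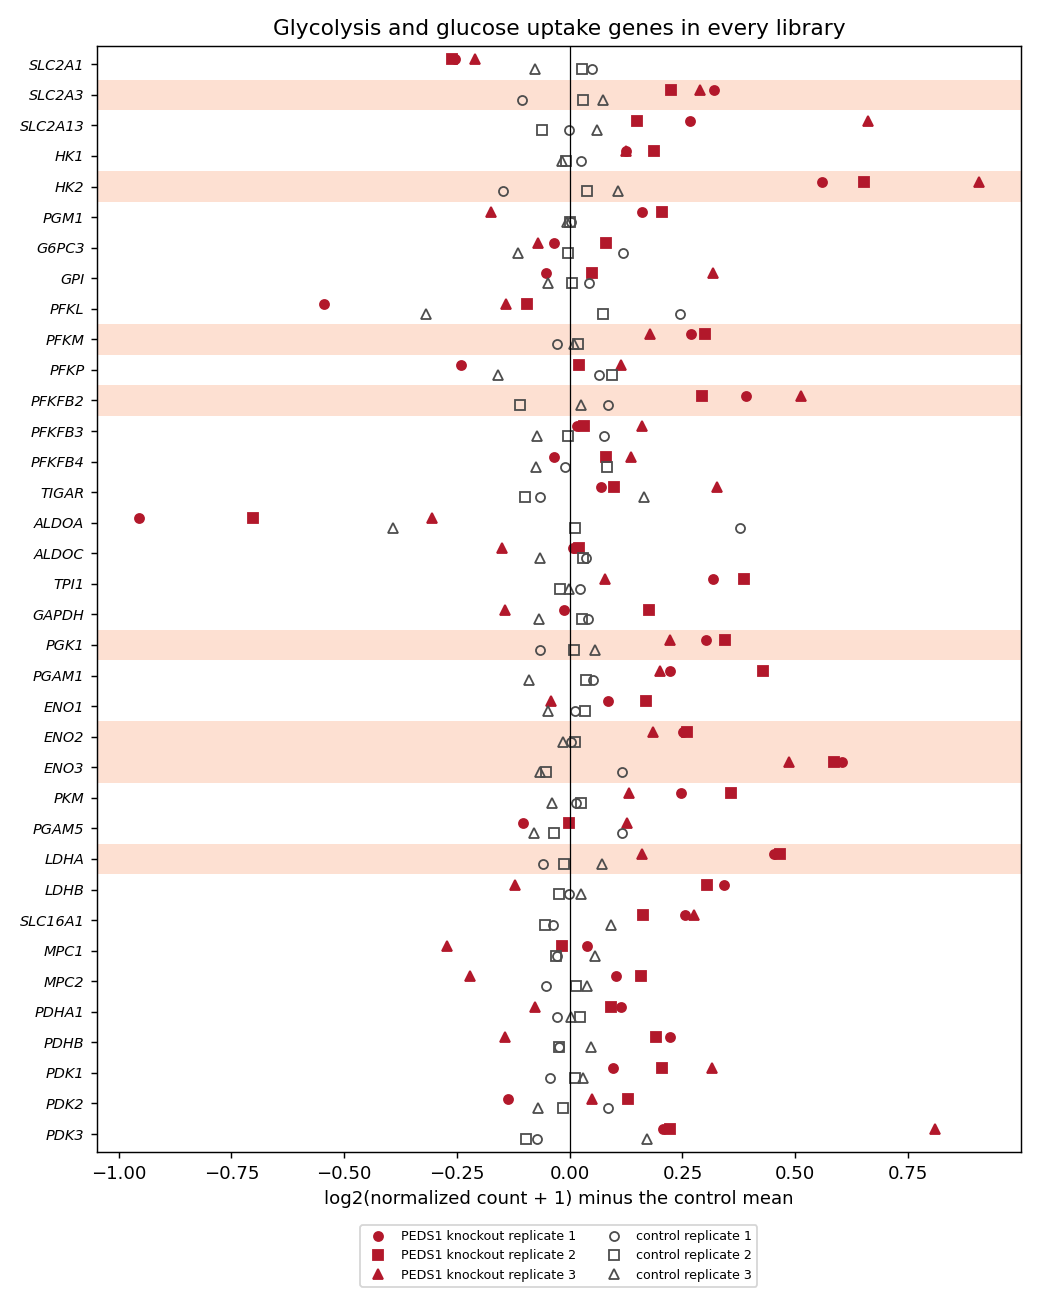
Each row is a member in pathway order and each point a library, placed at its log2(normalized count + 1) minus the control mean of that gene. Filled symbols are PEDS1 knockout libraries, open symbols control libraries, and shaded rows the 8 members that passed limma at an adjusted p under 0.05. In 16 rows all filled symbols lie right of all open ones, and in SLC2A1 they lie left.

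Of the 2 glucose carriers SLC2A3 rose and SLC2A1 did not pass. SLC2A3, the high-affinity carrier typical of neurons, measured 2978, 2785 and 2915 normalized counts in PEDS1 knockout libraries against 2218, 2434 and 2512 in control libraries. SLC2A1, the widely expressed basal carrier, measured 1242, 1236 and 1282 in PEDS1 knockout libraries against 1533, 1509 and 1405 in control libraries. Neither gene's groups overlapped, with SLC2A3 above and SLC2A1 below the controls. SLC2A3 rose by 0.28 ± 0.07 on the log2 scale (limma adjusted p = 0.0350), whereas SLC2A1 differed by -0.24 ± 0.07 and missed the threshold (limma adjusted p = 0.0523). Per exon kilobase, SLC2A1 supplied 36.1% ± 0.772 of the summed level of the 2 carriers in PEDS1 knockout neurons and 44.8% ± 2.62 in control neurons (SD, n = 3 each). The summed level itself overlapped, at 714 to 746 normalized counts per exon kilobase in PEDS1 knockout libraries and 685 to 715 in control libraries. SLC2A13, whose product carries myo-inositol with protons and not glucose, measured 1383, 1275 and 1821 in PEDS1 knockout libraries against 1149.8, 1103 and 1200.0 in control libraries. Its groups did not overlap, the library labelled replicate 3 was far above the other 2, and the gene did not pass (log2 fold change 0.36 ± 0.12, limma adjusted p = 0.0750). Without that library the log2 fold change of SLC2A13 was 0.21 (adjusted p = 0.0545). The SLC2A3 call was lost without PEDS1 knockout replicate 1 or 2 or control replicate 1 or 2, with adjusted p of 0.0601 to 0.172. SLC2A1 was called lower without PEDS1 knockout replicate 3 (adjusted p = 0.0200), and its difference shrank to -0.07 once GC content and length trends were removed in each library (adjusted p = 0.415).

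At the trapping step HK2 rose and HK1 did not pass. HK2, an inducible hexokinase, measured 217, 232 and 277 normalized counts in PEDS1 knockout libraries against 133, 151 and 159 in control libraries. HK1, the main hexokinase of brain, measured 21011, 21949 and 21022 in PEDS1 knockout libraries against 19619, 19153 and 19037 in control libraries. For both genes all PEDS1 knockout libraries lay above all control libraries. HK2 averaged 242 ± 31.0 in PEDS1 knockout neurons and 148 ± 13.3 in control neurons (SD, n = 3 each). It rose by 0.71 ± 0.13 on the log2 scale (limma adjusted p = 0.00740), and it stayed called without any single library (adjusted p 0.00872 to 0.0430). HK1 differed by 0.15 ± 0.06 and did not pass (limma adjusted p = 0.137), although it did without PEDS1 knockout replicate 3 (adjusted p = 0.0385). Per exon kilobase HK2 supplied 1.17% ± 0.159 of hexokinase in PEDS1 knockout neurons and 0.790% ± 0.0824 in control neurons. The 3 other measured enzymes that make or use glucose 6-phosphate did not pass and had overlapping groups. PGM1, which joins it to glycogen breakdown, stood at a log2 fold change of 0.06 ± 0.10. G6PC3, the widely expressed glucose 6-phosphatase, stood at -0.01 ± 0.08, and GPI, which isomerises glucose 6-phosphate to fructose 6-phosphate, at 0.10 ± 0.09. Without PEDS1 knockout replicate 3 GPI stood at -0.0020. G6PC3 turned to 0.18 and passed (adjusted p = 0.0434) once GC content and length trends were removed.

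At the commitment step the muscle-type isoenzyme rose and the other 2 did not. PFKM, the most abundant phosphofructokinase here per exon kilobase, measured 11562, 11814 and 10853 normalized counts in PEDS1 knockout libraries against 9409, 9722 and 9650.3 in control libraries. PFKL, the liver type, measured 1258, 1719 and 1664 in PEDS1 knockout libraries against 2173, 1931 and 1472 in control libraries. The PFKM groups did not overlap, whereas PEDS1 knockout replicates 2 and 3 lay inside the control range for PFKL. PFKM rose by 0.25 ± 0.06 on the log2 scale (limma adjusted p = 0.0326), and PFKL, at -0.26 ± 0.15, and the platelet type PFKP, at -0.04 ± 0.11, did not pass. Once GC content and length trends were removed, PFKL stood at 0.00016 and PFKP at 0.15, and PFKL ran from -0.42 to -0.12 when each library was left out. PFKM made up 78.7% ± 2.71 of phosphofructokinase per exon kilobase in PEDS1 knockout neurons and 74.0% ± 2.80 in control neurons (SD, n = 3 each), and these ranges overlapped. The call of PFKM was lost without any library other than PEDS1 knockout replicate 3, with adjusted p of 0.0686 to 0.150.

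The bifunctional PFKFB enzymes make and remove fructose 2,6-bisphosphate, the main activator of phosphofructokinase. PFKFB2, the heart type, measured 529, 495 and 576 normalized counts in PEDS1 knockout libraries against 428, 373 and 410.5 in control libraries, without overlap. It rose by 0.40 ± 0.10 on the log2 scale (limma adjusted p = 0.0240), and the call was lost without control replicate 1 or 2 (adjusted p 0.0659 to 0.139). PFKFB3, the isoenzyme that most favours synthesis, and PFKFB4 overlapped between the groups, at log2 fold changes of 0.07 ± 0.08 and 0.06 ± 0.08. PFKFB2 held 10.8% ± 0.498 of the 3 PFKFB genes per exon kilobase in PEDS1 knockout neurons and 8.73% ± 0.652 in control neurons. TIGAR, a phosphatase that also removes fructose 2,6-bisphosphate, had overlapping groups and did not pass, at 0.16 ± 0.11. In GENCODE 29, 42.6% of its exon bases lie under another gene on the same strand, so its counts are uncertain.

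The middle of the pathway held 1 call and, per exon kilobase, the members with the highest and the lowest counts. The lowest was ALDOA, whose level is uncertain. PGK1, which makes the first ATP of glycolysis, measured 12139, 12499 and 11476 normalized counts in PEDS1 knockout libraries against 9403, 9903 and 10236 in control libraries. TPI1, the triose phosphate isomerase, measured 9142, 9592 and 7738 in PEDS1 knockout libraries against 7449.9, 7229.8 and 7323 in control libraries. GAPDH, which makes the NADH of glycolysis, measured 54622, 62241 and 49863 in PEDS1 knockout libraries against 56671, 56163 and 52561 in control libraries. The PGK1 and TPI1 groups did not overlap, while for GAPDH the PEDS1 knockout libraries lay on both sides of the controls. PGK1 rose by 0.29 ± 0.07 on the log2 scale (limma adjusted p = 0.0222), TPI1 missed the threshold at 0.26 ± 0.08 (limma adjusted p = 0.0666), and GAPDH was at 0.01 ± 0.09. PGAM1, the phosphoglycerate mutase, measured 502, 579.6 and 495 in PEDS1 knockout libraries against 446, 442 and 404 in control libraries. These groups did not overlap, and at 0.28 ± 0.10 the gene did not pass (limma adjusted p = 0.0735). Without PEDS1 knockout replicate 3 both TPI1 (adjusted p = 0.00180) and PGAM1 (adjusted p = 0.0341) passed. The PGK1 call was lost without PEDS1 knockout replicate 1 or 2 or control replicate 1 or 2 (adjusted p 0.0518 to 0.126).

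Both aldolases, which cut fructose 1,6-bisphosphate, were low. ALDOA, the muscle type, measured 45.2, 54.1 and 71.5 normalized counts in PEDS1 knockout libraries against 115, 89.4 and 67.3 in control libraries, with only the library labelled PEDS1 knockout replicate 3 inside the control range. Its log2 fold change of -0.65 ± 0.23 did not pass (limma adjusted p = 0.0809), and without PEDS1 knockout replicate 3 or control replicate 3 it did (adjusted p 0.0312 to 0.0476). In GENCODE 29, 42.3% of the ALDOA exon bases also belong to AC093512.2 on the same strand, and no source used here says how reads of shared exons were counted, so the ALDOA level is uncertain. ALDOC, the brain type, had overlapping groups at -0.04 ± 0.11, and stood at 0.087 once GC content and length trends were removed. GAPDH and PGAM1 have 62 and 13 named pseudogenes in GENCODE 29, whose near-identical copies could take some of their reads.

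Of the 3 enolases 2 rose, the muscle type and the neuron type. ENO3, the muscle-type enolase, measured 2662, 2632 and 2455 normalized counts in PEDS1 knockout libraries against 1900.0, 1690.0 and 1675 in control libraries. ENO2, the neuron-type enolase, measured 36638, 36858 and 34987 in PEDS1 knockout libraries against 30815, 31040.2 and 30437 in control libraries. ENO1, the form found in most tissues, measured 21804, 23122 and 19973 in PEDS1 knockout libraries against 20730.5, 21054 and 19874 in control libraries. The groups were apart for ENO3 and ENO2 and overlapped for ENO1. ENO3 averaged 2583 ± 112 in PEDS1 knockout neurons and 1755 ± 126 in control neurons (SD, n = 3 each). It rose by 0.56 ± 0.08 on the log2 scale (limma adjusted p = 0.00208), and stayed called without any single library (adjusted p 0.000748 to 0.0216). ENO2 rose by 0.23 ± 0.06 (limma adjusted p = 0.0360), and ENO1, at 0.07 ± 0.07, did not pass. Per exon kilobase ENO3 supplied 4.58% ± 0.0768 of enolase in PEDS1 knockout neurons and 3.56% ± 0.236 in control neurons, and ENO1 supplied 31.2% ± 1.00 in PEDS1 knockout neurons and 33.9% ± 0.436 in control neurons. The ENO2 call was lost without any library other than PEDS1 knockout replicate 3 (adjusted p 0.0789 to 0.169). PKM, the pyruvate kinase of brain and muscle, measured 28927, 31216 and 26696 in PEDS1 knockout libraries against 24597, 24819 and 23710.4 in control libraries. Its groups did not overlap, yet at 0.25 ± 0.07 it missed the threshold (limma adjusted p = 0.0535) unless PEDS1 knockout replicate 3 was left out (adjusted p = 0.00503). The counts do not separate the PKM splice forms. PGAM5, named as a mutase but known as a mitochondrial protein phosphatase, overlapped at 0.01 ± 0.09.

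**Figure D2:**
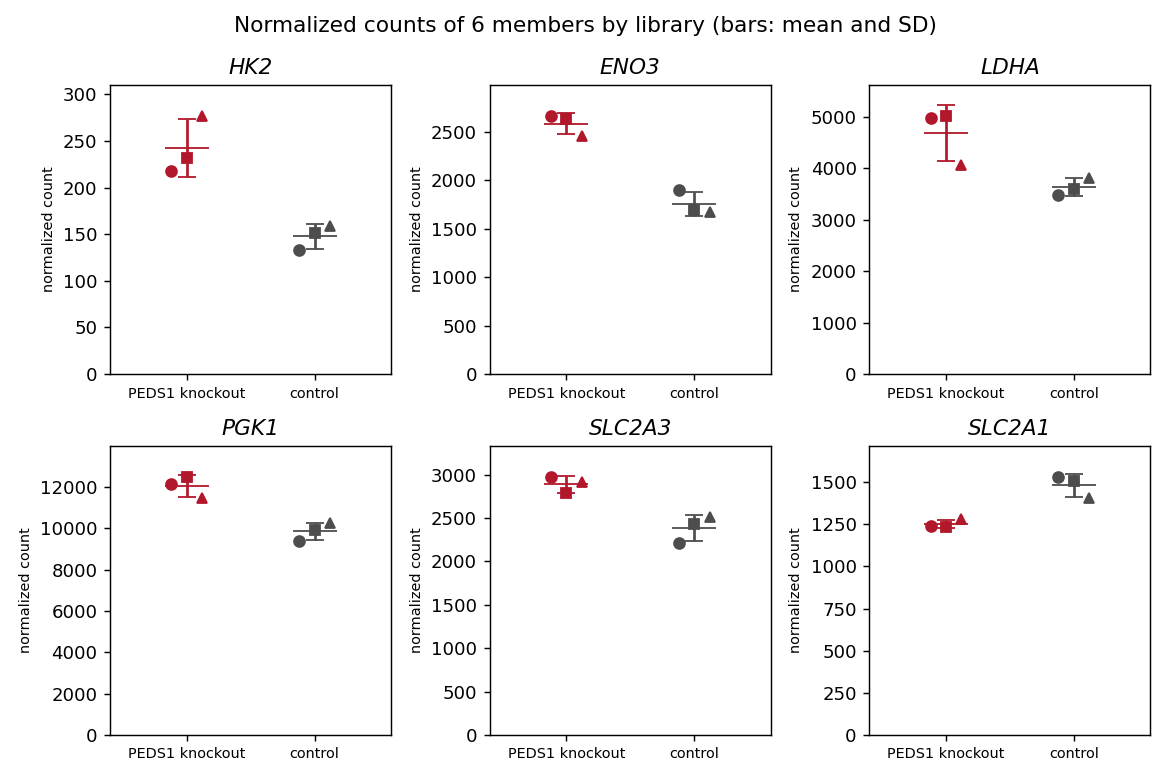
Normalized counts per library of 6 members on linear axes from 0, PEDS1 knockout at the left and control at the right of each panel. Long horizontal bars are group means and error bars the SD of 3 libraries; circles, squares and triangles are replicates 1, 2 and 3. HK2, ENO3, LDHA, PGK1 and SLC2A3 lie higher and SLC2A1 lower in PEDS1 knockout libraries, without overlap.

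At the branch to lactate, LDHA rose. LDHA, the subunit that favours pyruvate reduction, measured 4970.1, 5020.1 and 4061 normalized counts in PEDS1 knockout libraries against 3484, 3604 and 3817 in control libraries. LDHB, the heart-type subunit, measured 3161, 3079 and 2291 in PEDS1 knockout libraries against 2488, 2453 and 2535 in control libraries. The LDHA groups did not overlap, whereas for LDHB the library labelled PEDS1 knockout replicate 3 lay below all controls and the other 2 above them. LDHA rose by 0.36 ± 0.09 on the log2 scale (limma adjusted p = 0.0299), and LDHB, at 0.18 ± 0.11, did not pass (limma adjusted p = 0.311) except without PEDS1 knockout replicate 3 (adjusted p = 0.00367). LDHA formed 44.3% ± 1.52 of lactate dehydrogenase per exon kilobase in PEDS1 knockout neurons and 41.2% ± 0.892 in control neurons (SD, n = 3 each), without overlap. In GENCODE 29, 33.4% of the LDHB exon bases lie under another gene on the same strand, which makes this share uncertain. SLC16A1, a carrier of lactate and pyruvate across the cell membrane, measured 2269, 2128 and 2300.4 in PEDS1 knockout libraries against 1852, 1832 and 2026 in control libraries. Its groups did not overlap, and at 0.23 ± 0.07 it did not pass (limma adjusted p = 0.0638), while it did without PEDS1 knockout replicate 3 (adjusted p = 0.0470). The LDHA call was lost without PEDS1 knockout replicate 1 or 2 or control replicate 1 or 2 (adjusted p 0.0757 to 0.137).

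Of the 7 members that act where pyruvate enters mitochondria, MPC1, MPC2, PDHA1, PDHB, PDK1, PDK2 and PDK3, 0 passed limma, and at an unadjusted p under 0.05 there were 2, PDK1 and PDK3, both higher, as were 14.99% of all genes. edgeR called 0 of them and DESeq2 called 1, PDK3 (adjusted p = 0.0440). MPC1 and MPC2, the subunits of the mitochondrial pyruvate carrier, stood at log2 fold changes of -0.08 ± 0.10 and 0.01 ± 0.10. PDHA1 and PDHB, subunits of the first enzyme of pyruvate dehydrogenase, stood at 0.04 ± 0.07 and 0.09 ± 0.10. In all 4 genes the groups overlapped, and the library labelled PEDS1 knockout replicate 3 was the lowest of all 6 libraries. Among the kinases that switch the complex off, PDK3 measured 1032, 1043 and 1566 normalized counts in PEDS1 knockout libraries against 849, 835 and 1006 in control libraries. PDK1 measured 987, 1065 and 1150.2 in PEDS1 knockout libraries against 897, 932 and 944 in control libraries. Neither kinase had overlapping groups, and for PDK3 only replicate 3 stood far above the control range. PDK3, at 0.41 ± 0.15, and PDK1, at 0.21 ± 0.08, did not pass (limma adjusted p = 0.0969 and 0.118), and PDK2 overlapped at 0.01 ± 0.09. Without PEDS1 knockout replicate 3 the log2 fold change of PDK3 was 0.22 (adjusted p = 0.105), and limma called PDHB higher (adjusted p = 0.0210).

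Per exon kilobase the members spanned a wide range of levels. GAPDH stood at 18643 normalized counts per exon kilobase in PEDS1 knockout neurons and 18494 in control neurons. ENO2 followed, at 8447 in PEDS1 knockout neurons and 7186 in control neurons. At the low end stood HK2, at 39.9 in PEDS1 knockout neurons and 24.3 in control neurons, and ALDOA, at 14.5 in PEDS1 knockout neurons and 23.2 in control neurons. The ALDOA level is uncertain because of its shared exons. Summed over isoenzymes per exon kilobase, hexokinase, phosphofructokinase, enolase and the PDK kinases were each higher in every PEDS1 knockout library than in any control library. For the PDK kinases the gap was narrow, with sums of 390, 421 and 525 in PEDS1 knockout libraries against 367, 357 and 388 in control libraries. The sums of lactate dehydrogenase, of the PFKFB enzymes and of the 2 glucose carriers overlapped. All members together took 0.891%, 0.939% and 0.818% of the library in PEDS1 knockout replicates 1, 2 and 3, against 0.821%, 0.825% and 0.796% in control replicates 1, 2 and 3. These groups overlapped through replicate 3. Without GAPDH, the shares were 0.693%, 0.716% and 0.644% in PEDS1 knockout libraries against 0.615%, 0.620% and 0.605% in control libraries, and did not overlap.

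Ratios between related genes within a library do not depend on how libraries are scaled, but can depend on GC content and length of transcripts. The log2 ratio of HK2 to HK1 was higher by 0.56 in PEDS1 knockout libraries, and that of LDHA to LDHB by 0.18. The log2 ratio of SLC2A1 to SLC2A3 was -1.26, -1.17 and -1.19 in PEDS1 knockout libraries against -0.53, -0.69 and -0.84 in control libraries, a difference of -0.52. The ratio of ENO1 to ENO2 differed by -0.16 and that of PFKFB3 to PFKFB2 by -0.33. In these 5 of 9 chosen pairs the groups did not overlap, and in ALDOA to ALDOC, PFKP to PFKM, PFKL to PFKM and PDK1 to PDK3 they did. With GC content and length trends removed, the log2 fold changes were -0.07 for SLC2A1 and 0.24 for SLC2A3. They were 0.23 for PFKFB3 and 0.35 for PFKFB2, and 0.15 for ENO1 and 0.39 for ENO2. For HK2 and HK1 they were 0.64 and 0.12, and for LDHA and LDHB 0.34 and 0.18. A further pair picked after its values were seen, ENO3 to ENO2, was higher by 0.33 in PEDS1 knockout libraries, without overlap. Without PEDS1 knockout replicate 3 the groups did not overlap in 8 pairs, and without control replicate 3 in 9.

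**Figure D3:**
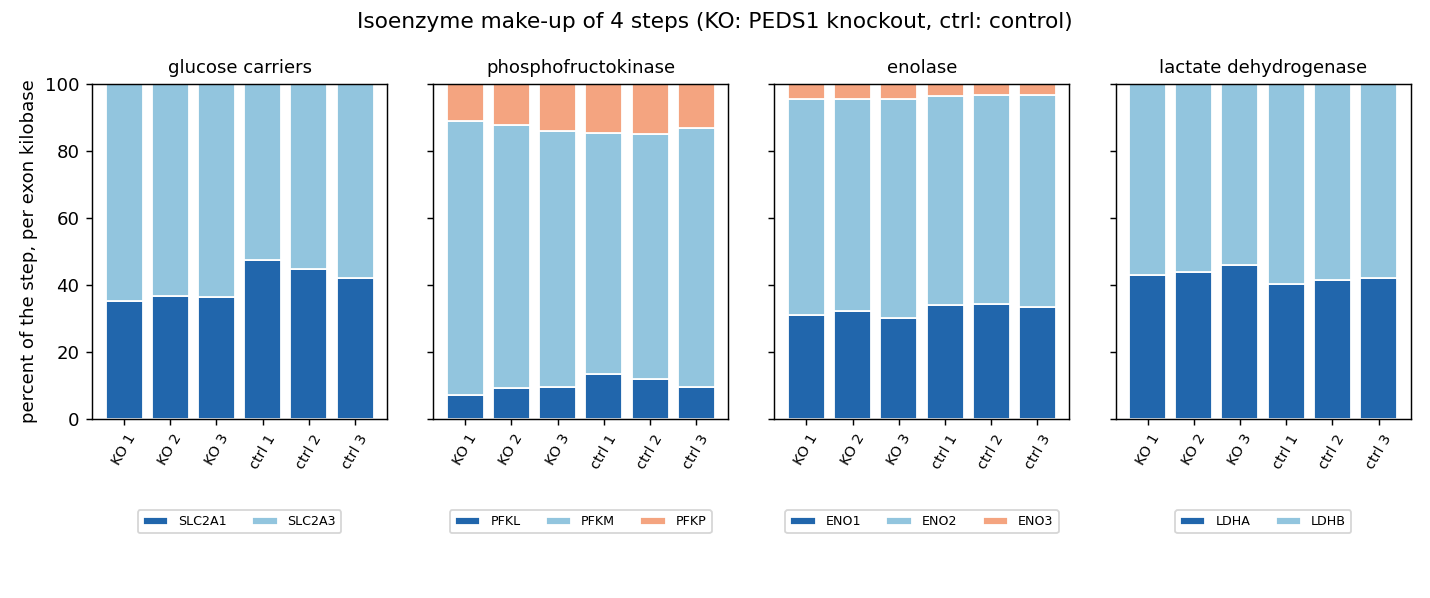
Stacked bars give, for each library, the percent of a step's summed normalized count per exon kilobase that each isoenzyme supplied, with PEDS1 knockout libraries (KO) left of control libraries (ctrl). SLC2A1 takes 35.2% to 36.7% of the 2 carriers in PEDS1 knockout libraries and 42.2% to 47.4% in control libraries. The enolase, lactate dehydrogenase and phosphofructokinase bars differ less.

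The 3 PEDS1 knockout libraries did not behave alike over the members. PEDS1 knockout replicate 1 lay above the control range in 22 members and below it in 7, replicate 2 in 25 and 2, and replicate 3 in 22 and 9. No share over all genes was computed for these counts or for the split that follows. They are therefore not shown to be particular to the members. Replicates 1 and 2 lay above the control range together in 22 members. In those 22, the library labelled replicate 3 was above the range in 16, within it in 1, ENO1, and below it in 5, PGM1, LDHB, MPC2, PDHA1 and PDHB. It was the lowest of the 3 in 18 of the 36 members, beside 35.0% of all genes, and the highest in 14, beside 42.7%. Without it, 15 members were called higher and 2 lower (47.2% of the members, beside 21.5% of all genes). The members added were HK1, TPI1, PGAM1, PKM, LDHB, SLC16A1 and PDHB, higher, and SLC2A1 and ALDOA, lower.

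Promoter sequences are shown for 4 of the called genes because the called members include known targets of HIF1A. HIF1A is the oxygen-sensing factor that binds ACGTG or GCGTG, and its part in the calls was not tested. RefSeq promoter records of GRCh38.p14 matched 33 of the 36 members, all but SLC2A3, PFKFB2 and SLC16A1. The windows are the 250 bases before the start that RefSeq gives, on the plus strand of the genome, read 5′ to 3′, and capitals mark ACGTG and GCGTG on either strand. GENCODE 29 places the first start of each of these 4 genes inside or before the window. HK2 lies at chr2:74833877-74834126, ENO3 at chr17:4950302-4950551, LDHA at chr11:18394313-18394562 and PGK1 at chrX:78103998-78104247.
HK2: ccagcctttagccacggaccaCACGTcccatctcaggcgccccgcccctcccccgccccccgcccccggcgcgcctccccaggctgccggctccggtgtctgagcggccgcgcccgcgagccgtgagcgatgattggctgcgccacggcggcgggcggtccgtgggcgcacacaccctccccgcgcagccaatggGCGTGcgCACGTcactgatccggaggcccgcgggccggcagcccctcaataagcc
ENO3: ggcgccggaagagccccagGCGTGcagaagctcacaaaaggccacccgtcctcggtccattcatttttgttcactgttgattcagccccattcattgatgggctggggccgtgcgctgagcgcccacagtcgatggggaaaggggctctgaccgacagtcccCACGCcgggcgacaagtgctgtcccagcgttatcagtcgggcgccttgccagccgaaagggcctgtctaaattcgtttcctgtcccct
LDHA: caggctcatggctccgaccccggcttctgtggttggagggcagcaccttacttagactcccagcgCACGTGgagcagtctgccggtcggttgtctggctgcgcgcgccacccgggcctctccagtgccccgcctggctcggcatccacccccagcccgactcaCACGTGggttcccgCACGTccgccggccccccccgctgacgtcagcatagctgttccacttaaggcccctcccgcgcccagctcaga
PGK1: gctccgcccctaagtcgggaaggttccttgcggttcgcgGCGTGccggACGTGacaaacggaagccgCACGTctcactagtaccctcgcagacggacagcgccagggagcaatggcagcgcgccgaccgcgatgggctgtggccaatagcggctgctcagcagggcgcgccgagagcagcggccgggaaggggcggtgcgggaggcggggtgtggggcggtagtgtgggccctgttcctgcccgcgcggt
The HK2 window held ACGTG 2 times and GCGTG 1 time, the PGK1 window held ACGTG 2 times and GCGTG 1 time, and the ENO3 window held GCGTG 2 times. The LDHA window held ACGTG 5 times, counting both strands, since each palindrome CACGTG, the E-box, holds it on both. ACGTG was found in 13 of 33 matched members (39.4%) and in 18.5% of all 35116 promoters of this length. It was found in 4 of the 6 called members with a record, HK2, PGK1, ENO2 and LDHA, and in 9 of the 27 others. GCGTG was found in 13 of 33 members (39.4%) and in 32.2% of all promoters. Among the 6 called members 3 held it, and among the 27 others 10. CACGTG was found in 18.2% of members and 6.34% of all promoters, and the GC box GGGCGG in 69.7% of members and 42.6% of all promoters. Of the 6 called members 1 held CACGTG and 3 held GGGCGG, against 5 and 20 of the 27 others. The windows of SLC2A1 and PFKM held neither ACGTG nor GCGTG. These are matches of letters, not binding sites.

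The number of members called depended on the test. The authors' deposited table, from DESeq2, has 14 members at an adjusted p under 0.05 (38.9%), beside 18.0% of all genes with an adjusted p there. It holds all 8 members called by limma and in addition SLC2A13, TPI1, PKM, SLC16A1 and PDK3, higher, and SLC2A1, lower. With trends on GC content and length removed within each library, limma called 14 members higher (38.9%, beside 17.4% of all genes). Those were the same 8 with G6PC3, GPI, PFKFB3, TPI1, PGAM1 and PKM. This removal also turned the split over all genes to 1534 higher and 1250 lower, beside 990 higher and 1279 lower without it. Without control replicate 2 only HK2 and ENO3 remained called (5.56%, beside 3.50% of all genes).

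**Figure D4:**
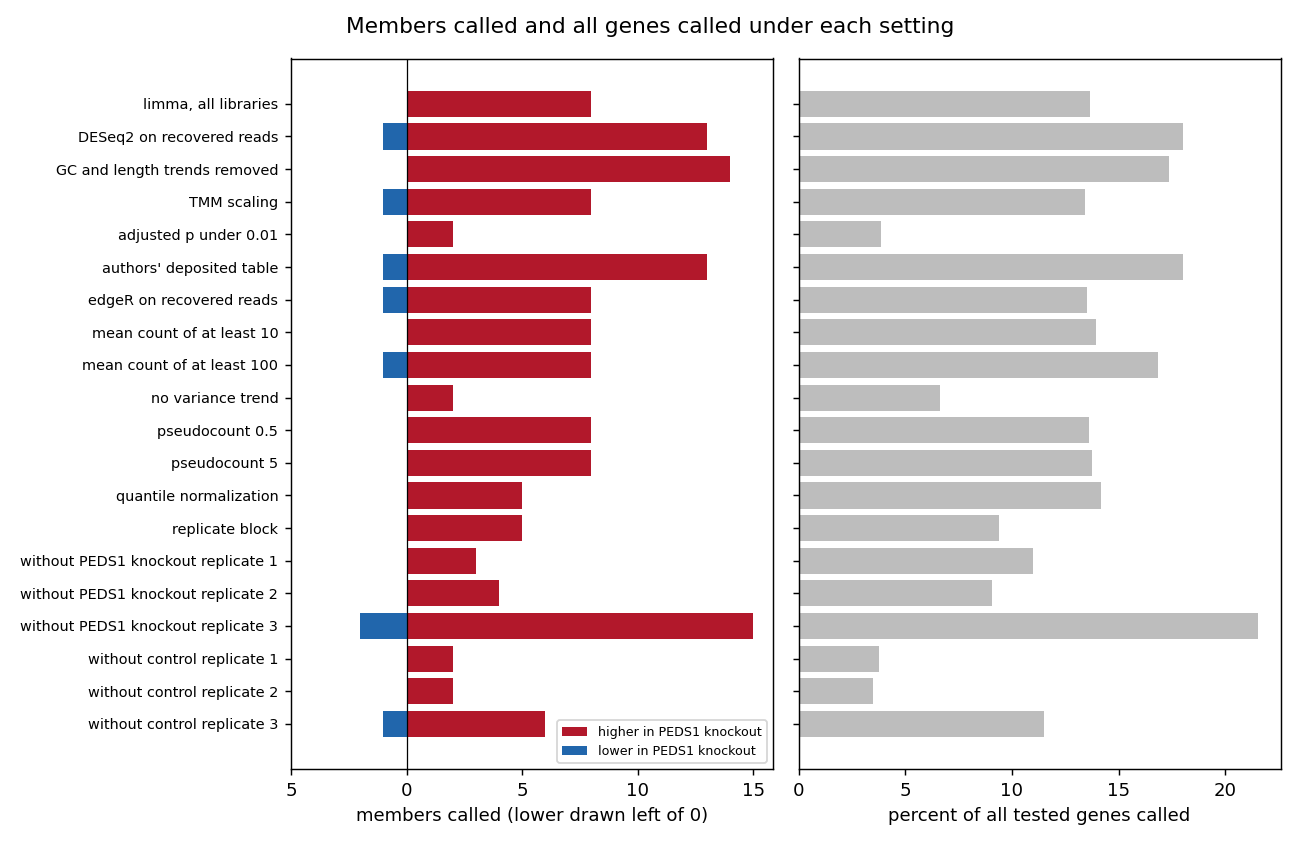
Bars at the left count the members called higher (right of 0) and lower (left of 0) in PEDS1 knockout libraries under each setting, and bars at the right give the percent of all tested genes called under the same setting. Without PEDS1 knockout replicate 3 the counts are 15 and 2, and without control replicate 1 or 2 they are 2 and 0.

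In the 9 lists of neighbouring pathways 22 of 127 measured genes passed (17.3%, beside 13.6% of all genes), 11 higher and 11 lower in PEDS1 knockout neurons. Of 12 further isoenzymes and carriers with a row, 1 fell, SLC2A8, an intracellular hexose carrier, at 183 ± 14.1 normalized counts in PEDS1 knockout neurons and 253 ± 31.7 in control neurons (SD, n = 3 each; limma adjusted p = 0.0326). The list's other 22 genes, among them HK3, PKLR, SLC2A2 and SLC2A4, had no row in the table used here. Of 10 genes of the pentose phosphate pathway, which draws glucose 6-phosphate off to make NADPH, 0 passed limma or edgeR, 1 passed DESeq2, and 1 was lower at an unadjusted p under 0.05. Of 7 partners of pyruvate dehydrogenase 1 fell, PC, the pyruvate carboxylase, at a log2 fold change of -0.60 ± 0.15 (limma adjusted p = 0.0278). Of 16 citric acid cycle genes 1 rose, OGDH, at 0.29 ± 0.08 (limma adjusted p = 0.0321). The median log2 fold changes of these lists were -0.13, -0.14, 0.15 and 0.06, beside -0.01 for all genes. Of 8 genes of the shuttles that bring cytosolic NADH into mitochondria, GPD2 (0.34 ± 0.08) and SLC25A13 (0.28 ± 0.07) rose and GOT1 (-0.31 ± 0.08) fell. The calls named in this paragraph were each lost without control replicate 1 or 2, with adjusted p of 0.0538 to 0.182 over all leave-one-out fits that lost a call. Those of SLC2A8, PC and SLC25A13 were also lost without PEDS1 knockout replicate 1 or 2, and those of OGDH and GOT1 without PEDS1 knockout replicate 2 or control replicate 3.

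Of 20 measured glycogen genes 3 rose and 2 fell, beside 5.95% and 7.69% of all genes, and the median log2 fold change was 0.17. PYGM, the muscle-type glycogen phosphorylase, averaged 655 ± 30.7 normalized counts in PEDS1 knockout neurons and 419 ± 13.7 in control neurons (log2 fold change 0.64 ± 0.08, limma adjusted p = 0.00133). UGP2, which makes the UDP-glucose that glycogen is built from, averaged 2658 ± 293 in PEDS1 knockout neurons and 3841 ± 198 in control neurons (-0.54 ± 0.09, limma adjusted p = 0.00559). PHKG2, a catalytic subunit of phosphorylase kinase, fell by 0.46 on the log2 scale (SE 0.09, limma adjusted p = 0.0120). PGM2L1, which makes glucose 1,6-bisphosphate and is named after its value was seen, rose by 0.44 ± 0.10. Of 18 genes of hexosamine and nucleotide sugar synthesis 3 fell, beside 7.69% of all genes, and the median was -0.12. UGDH, which oxidises UDP-glucose, averaged 471 ± 21.0 in PEDS1 knockout neurons and 732 ± 21.9 in control neurons (-0.64 ± 0.08, limma adjusted p = 0.00118). GALT, of galactose use, and NANS, of sialic acid synthesis, fell by 0.74 and 0.43 on the log2 scale. PYGM, UGP2 and UGDH stayed called without any single library, and the calls of PHKG2, PGM2L1, GALT and NANS were lost without control replicate 1 or 2.

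Of 20 measured regulators of glycolytic genes 4 rose, beside 5.95% of all genes, with a list median of 0.13. At an unadjusted p under 0.05, 7 were higher and 3 lower, beside 14.99% and 16.7% of all genes. DESeq2 called 1 regulator lower, and limma called 2 lower without PEDS1 knockout replicate 3. TXNIP, an arrestin-like protein that restrains glucose uptake and answers to glucose, measured 81.8, 88.1 and 69.2 normalized counts in PEDS1 knockout libraries against 16.3, 30.1 and 14.8 in control libraries. Every PEDS1 knockout library exceeded every control library, and TXNIP rose by 1.98 ± 0.26 on the log2 scale (limma adjusted p = 0.00146). HIF1A measured 6514, 6204 and 6618 in PEDS1 knockout libraries against 5207, 5337 and 5766 in control libraries, also without overlap. It rose by 0.25 ± 0.07 (limma adjusted p = 0.0413), a call lost without PEDS1 knockout replicate 1 or 2 or control replicate 1 or 2. ESRRG, an estrogen-related receptor, rose by 0.63 ± 0.12, and PPARGC1A, a coactivator of mitochondrial genes, by 0.43 ± 0.12, and both calls were lost without control replicate 1 or 2, that of PPARGC1A also without control replicate 3. Of 16 measured hypoxia targets that are no members 1 rose and 3 fell, beside 5.95% and 7.69% of all genes, with a median of -0.04. VEGFA, the vascular growth factor, measured 1919, 1530.1 and 1813 in PEDS1 knockout libraries against 3349, 3238 and 3164 in control libraries. That is a log2 fold change of -0.90 ± 0.09 (limma adjusted p = 0.000321), without overlap. BHLHE40, a transcriptional repressor, fell by 0.78 and DDIT4, an inhibitor of mTORC1, by 0.25 on the log2 scale, and KDM3A, a histone demethylase, rose by 0.22. The BHLHE40 call was lost without control replicate 2 or 3, that of DDIT4 without PEDS1 knockout replicate 1 or 2 or control replicate 1 or 2, and that of KDM3A without any library other than PEDS1 knockout replicate 3. DDIT4 stood at 0.065 (adjusted p = 0.540) once GC content and length trends were removed. With those trends removed, and by edgeR, 0 of the hypoxia targets were called higher, so the KDM3A call was lost in both. VEGFA and TXNIP stayed called without any single library.

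**Figure D5:**
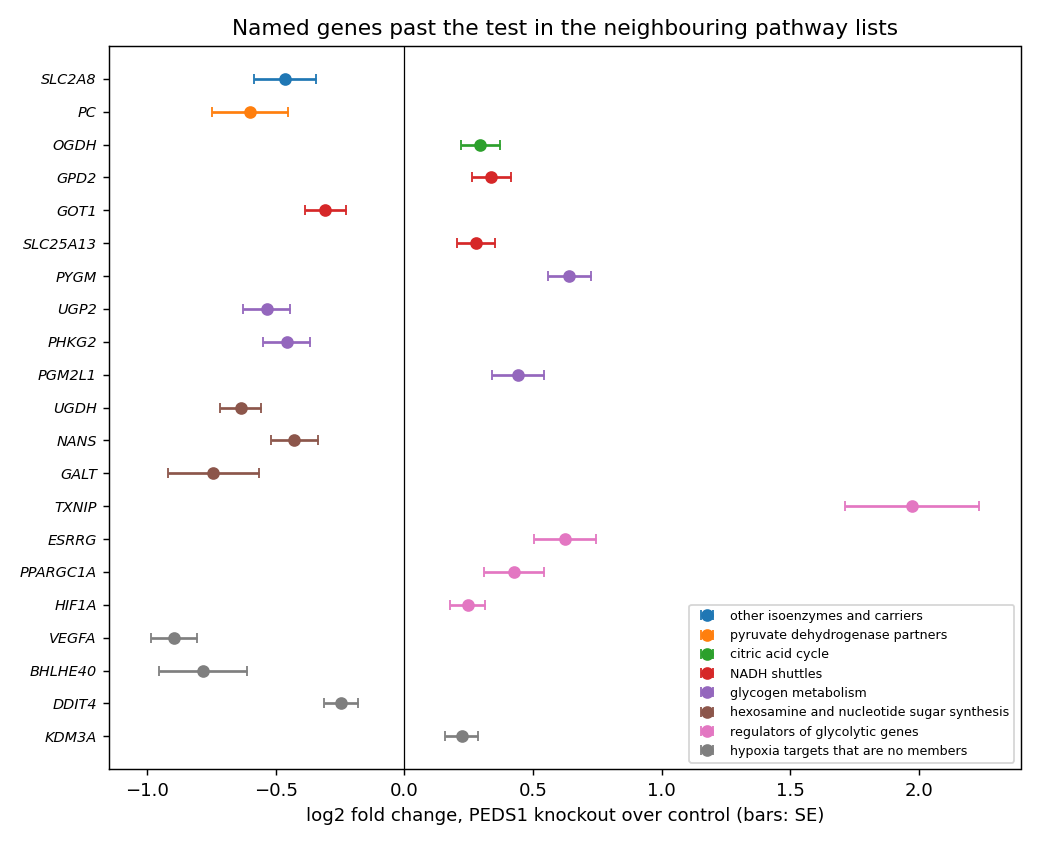
Points are log2 fold changes, PEDS1 knockout over control, of the genes named here from each neighbouring list that passed limma at an adjusted p under 0.05, with bars for the SE of 3 libraries a group and colours for the list. TXNIP lies farthest right, at 1.98, and VEGFA farthest left, at -0.90.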

How the data were processed

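PolyA RNA of 6 libraries, 3 PEDS1 knockout and 3 control, was sequenced as single-end 100 bp reads from stranded libraries made with 500 ng RNA, per the labels' protocols. STAR 2.7.10b and DESeq2 were used with GRCh38, per the submitters' processing notes, whereas the counting tool, its strand setting and the gene annotation are not named in any source used here. Each signal value that the authors deposited is the read count of a gene over the size factor of its library. In 100% of these deposited values the quotient by the library's step was whole (tolerance 1e-06), so reads were recovered for edgeR and DESeq2. For each gene the authors further deposited a log2 fold change, a p-value and the score of a Wald test, with the adjusted p empty in 1612 genes. A second deposited sheet repeats part of the genes and was not used.

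The test was limma 3.58.1 (R 4.3.3) on log2(normalized count + 1), with a variance trend and two-sided Benjamini-Hochberg adjusted p-values over 16625 genes. Fold changes are on that scale, and the median SE of a member was 0.09. Alternatives were edgeR 4.0.16, DESeq2 1.42.0, the authors' table, TMM or quantile scaling, pseudocounts of 0.5 and 5, filters at a mean count of 10 or 100, no variance trend, a threshold of 0.01, a replicate block, leaving out each library, and removal, within each library, of trends on GC content and length of transcripts (natural splines, 4 degrees of freedom, GENCODE 29, 16046 genes). Scripts were tested on simulated data.

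The members and lists were chosen with earlier results of these data known. The text names every member, PEDS1, VEGFA and up to 4 called genes per neighbouring list with the smallest adjusted p. PGM2L1, the fifth called glycogen gene, is beyond that rule. A gene that the rule selects is not reported here. Promoters come from RefSeq.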

Additional observations from a re-analysis of the deposited data

How the results depend on the processing

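The number of members called was 8 by limma and depended on the tool, scaling and libraries. It was 14 by DESeq2 and 14 in the authors' deposited table, each beside 18.0% of all genes. With GC content and length trends removed it was 14, beside 17.4%. It was 5 of 36 with quantile normalization, beside 14.2% of all genes, and 2 of 36 without a variance trend, beside 6.65%. It was 2 at an adjusted p under 0.01, beside 3.85%, and 2 to 17 when each library was left out, beside 3.50% to 21.5%. HK2 and ENO3 were called under every setting run. Over all genes, 2269 were called by limma, 640 at an adjusted p under 0.01, 1105 without a variance trend and 582 to 3577 when each library was left out. In the neighbouring lists 22 genes were called, against 5 at an adjusted p under 0.01, 8 without a variance trend and 5 to 38 when each library was left out. The PEDS1 log2 fold change of -0.52 passed the threshold at -0.48 by DESeq2, -0.48 in the authors' deposited table, -0.48 with GC content and length trends removed and -0.52 with quantile normalization, and ran from -0.77 to -0.37 when each library was left out. With those trends removed, direction turned in 2 genes called under either setting, to 0.18 for G6PC3 and 0.065 for DDIT4, and in PFKL, PFKP and ALDOC, which were not called under either. The related pairs without overlap numbered 5 to 9, and the share of reads of the members was 0.0405 to 0.101 percentage points higher in PEDS1 knockout libraries, when each library was left out. The cause of these differences was not tested.

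Libraries with equal replicate numbers did not vary together. The correlations of their deviations from the group means over 11705 genes with a mean count of 100 or more were -0.30, 0.10 and -0.05 for numbers 1, 2 and 3. For unequal numbers they ran from -0.22 to 0.27. With 3 libraries a group, these values cannot settle whether libraries were paired. With the replicate number as a block, 5 members were called (HK2, PFKFB2, PGK1, ENO3 and PDK3), 1560 genes in all (9.38%) and 14 genes of the neighbouring lists.

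Members not called are not shown to be unchanged, since the median SE of a member was 0.09 on the log2 scale beside a median log2 fold change of 0.13. No scaling moved the median log2 fold change of all genes by over 0.1. The normalized counts do not separate splice forms.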
